A study of Mus musculus with 15 samples.

Results

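Livers of male wild type C57BL/6 mice were profiled for the cytochrome P450 genes of the Cyp2a and Cyp2b subfamilies, chosen by symbol as the 7 genes Cyp2a4, Cyp2a5, Cyp2a12, Cyp2a22, Cyp2b9, Cyp2b10 and Cyp2b13 among the 21949 genes of the deposited mRNA table. All mice were killed at 40 weeks of age and fell into 5 groups. Nor mice received PBS at 2 weeks of age and ate chow, and NCD mice received DEN (diethylnitrosamine, a liver carcinogen) at the same age and ate chow. H1D, H2D and H3D mice received DEN at 2 weeks and then ate a high-fat diet in which fat supplied 60% of the energy. H1D mice were born to F0 mothers, H2D mice to F1 mothers and H3D mice to F2 mothers, in a line whose females were on the high-fat diet between 1 and 3 months of age. Own diet and maternal ancestry both separate the high-fat groups from NCD, so the effects of these 2 cannot be told apart there. Each group is represented by 2 libraries, pools made from equal RNA amounts of 4 to 8 mice, so the spread between libraries does not measure that between mice. The labels do not say whether the sampled tissue held tumour.

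Cytochrome P450 enzymes are membrane-bound monooxygenases that oxidise drugs, steroids and fatty acids with electrons passed on by the reductase Por. In the mouse liver Cyp2a4, a steroid hydroxylase, and Cyp2b9 and Cyp2b13 are known as genes expressed more in females than in males, a difference set by the pattern of growth hormone release and the transcription factor STAT5b. Cyp2b10 is the classical gene switched on by phenobarbital through the nuclear receptor CAR (Nr1i3), and Cyp2a5, a coumarin hydroxylase and the counterpart of the human nicotine-oxidising enzyme CYP2A6, responds to CAR, to NRF2 (Nfe2l2) and to liver injury.

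The 7 genes lie in 1 cluster on mouse chromosome 7, which in RefSeq's GRCm38.p6 annotation spans 1139 kb from Cyp2b10 at 25897658 to 25926624, through Cyp2b13 (26061388 to 26096197), Cyp2b9 (26173350 to 26210661), Cyp2a4 (26307192 to 26315088), Cyp2a5 (26835339 to 26843264) and Cyp2a22 (26931631 to 26939413), to Cyp2a12 at 27029090 to 27036818. Several are close copies of one another, and RNA reads can be shared between copies. How shared reads were assigned is not given in the sources used here, so values of Cyp2a4 against Cyp2a5, and of Cyp2b9, Cyp2b10 and Cyp2b13 against each other, carry that uncertainty. The upstream sequences (RefSeq, GRCm38.p6, plus strand, 5′ to 3′) show how close the pairs are in these windows. Likeness of the transcripts, which bears on shared reads, was not measured. Levels of the genes are given further on. Over the 250 bases before the annotated start, Cyp2a4 and Cyp2a5 were identical at 245 of 249 aligned bases (98.4%), and the capitals mark the 4 differences, C19T, T131C, G161A and G205T, with the Cyp2a4 base first and positions counted from 1 at the 5′ end of its window.
Cyp2a4, chr7:26306942-26307191: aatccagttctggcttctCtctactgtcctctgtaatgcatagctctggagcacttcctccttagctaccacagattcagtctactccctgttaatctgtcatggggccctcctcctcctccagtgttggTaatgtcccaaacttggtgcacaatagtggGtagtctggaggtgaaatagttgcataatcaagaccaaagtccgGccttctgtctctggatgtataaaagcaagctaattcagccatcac
Cyp2a5, chr7:26835089-26835338: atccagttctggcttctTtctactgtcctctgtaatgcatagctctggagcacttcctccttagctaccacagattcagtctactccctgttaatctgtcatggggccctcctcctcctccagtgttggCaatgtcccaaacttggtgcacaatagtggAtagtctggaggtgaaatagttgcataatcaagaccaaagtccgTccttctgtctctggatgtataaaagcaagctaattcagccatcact

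Cyp2b9 and Cyp2b13 were identical at 248 of 250 bases (99.2%), and Cyp2b10 was identical to Cyp2b9 at 179 of 240 aligned bases (74.6%). Of the 250 bases compared, the first 191 of Cyp2b9 and 143 of Cyp2b13 lie before the annotated gene and the rest inside it. For Cyp2b9 and Cyp2b13 the first 143 bases of their windows are shown, which end before any annotated start of either gene, and capitals mark T48C and C104T, with the Cyp2b9 base first and counted in the same way. For Cyp2b10 the window runs up to the gene's start, and capitals mark its match to a C/EBP-type motif.
Cyp2b9, chr7:26173159-26173301: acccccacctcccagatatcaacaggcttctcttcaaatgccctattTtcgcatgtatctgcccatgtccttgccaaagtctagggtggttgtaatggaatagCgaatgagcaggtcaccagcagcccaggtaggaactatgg
Cyp2b13, chr7:26061245-26061387: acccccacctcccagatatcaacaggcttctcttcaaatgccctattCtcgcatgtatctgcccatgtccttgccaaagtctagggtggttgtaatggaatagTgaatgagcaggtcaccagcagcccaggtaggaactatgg
Cyp2b10, chr7:25897408-25897657: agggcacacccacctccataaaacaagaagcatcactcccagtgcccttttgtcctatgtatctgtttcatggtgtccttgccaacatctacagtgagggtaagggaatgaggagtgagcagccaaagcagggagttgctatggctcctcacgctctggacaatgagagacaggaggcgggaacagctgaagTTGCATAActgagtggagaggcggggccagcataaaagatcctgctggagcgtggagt

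Motifs were searched on both strands of the 250-base windows of 32851 genes. A C/EBP-type match (TTGCNNAA or TTGCNNCAA), found in 11.1% of all windows, was present in Cyp2a4, Cyp2a5, Cyp2b9, Cyp2b10 and Cyp2b13. Cyp2a4 and Cyp2a5 shared the same letters of it, TTGCATAA, at 70 to 63 and 71 to 64 bases before the start, and both held an HNF1-type match (GTTAAT, 6.43% of windows). The windows of Cyp2a12 and Cyp2a22, identical at 215 of 239 aligned bases (90.0%), held no match to any searched motif. No member's window held a match to the STAT5 motif TTCNNNGAA (7.02% of windows), the NRF2 element TGACNNNGC (10.2%), the DBP-family motifs TTACGTAA, TTATGTAA and TTACATAA (0.931%), the HNF4 motifs CAAAGTCCA and CAAAGGTCA (0.807%) or the DR4 element of CAR and PXR, searched as direct repeats of AGTTCA or AGGTCA spaced by 4 bases (0.0244%). These windows cover only the bases next to the start, and distal elements were not searched. The windows of Cyp2b9, Cyp2b13 and Cyp2a22 reach into the annotated gene.

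Levels are in FPKM (sequenced fragments per kilobase of transcript after scaling for the mapped fragments of each library), summed over the transcripts of a gene. Changes are differences of log2(FPKM + 0.5) from limma with their standard error (SE), tested in the 11557 genes that reached 1 FPKM in 2 or more libraries. A gene is said to rise or fall where the Benjamini-Hochberg adjusted p over these genes was below 0.05. All 7 members entered the test, Cyp2b10 through its Nor and NCD pools, and Cyp2a4 and Cyp2b13 through the pools given DEN, where they were high. Per library, 10263 to 11169 genes were at or above 1 FPKM. The read depth is not given in the sources used here, so no counting interval is attached to low values. Hepatocyte markers fixed for the tissue check, 11 in the table, summed to 60946 to 107251 FPKM over all pools with none at 0, as the liver label has it.

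**Figure D1:**
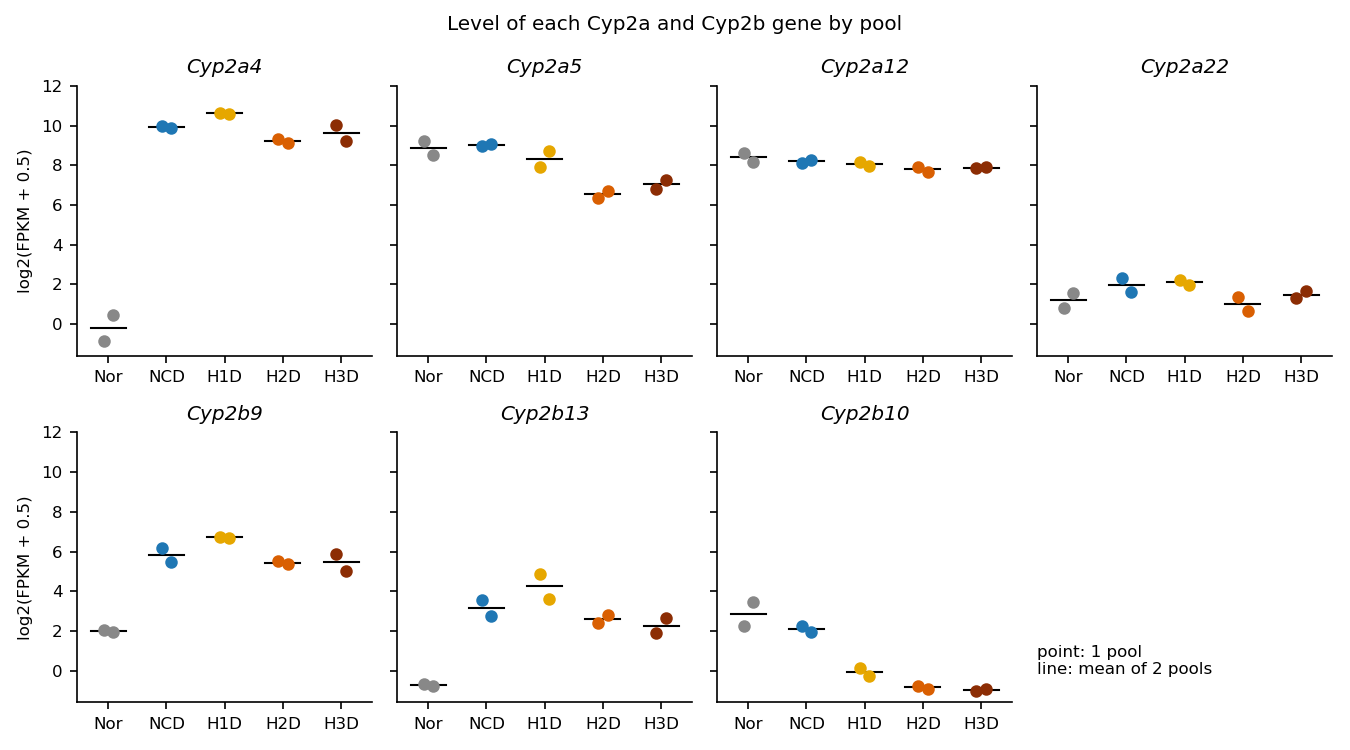
Level of each gene as log2(FPKM + 0.5) on the y axis in the 5 groups on the x axis; points are pools and lines are means of 2 pools. Cyp2a4, Cyp2b9 and Cyp2b13 sit low in Nor and high in every group given DEN, Cyp2b10 and Cyp2a5 sit lowest in H2D and H3D, and Cyp2a12 and Cyp2a22 move least.

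Cyp2a4 had the widest range of the 7 genes. Its level was 0.0485 and 0.862 FPKM in Nor, with NCD at 1007 and 958, H1D at 1601 and 1539, H2D at 637 and 562 and H3D at 1059 and 610. Both Nor pools lay below 1 FPKM and every pool given DEN lay above 560, with no overlap. Cyp2b9 followed the same order of groups at a lower level, with 3.71 and 3.29 FPKM in Nor, with NCD at 72.7 and 44.5, H1D at 106 and 102, H2D at 44.9 and 40.3 and H3D at 59.3 and 32.1. The Nor pools were below all others, and the H1D pools were above all others. Cyp2b13 stood at 0.133 and 0.0903 FPKM in Nor, with NCD at 11.4 and 6.24, H1D at 28.3 and 11.9, H2D at 4.77 and 6.51 and H3D at 3.20 and 5.81. Here too both Nor pools were lowest and both H1D pools highest. How many of all tested genes had such an order of pools was not counted.

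The comparison of NCD with Nor asks what DEN alone went with on chow. In it 3 of the 7 members rose, 0 fell and 4 were not called, where 13.9% of all tested genes were called, 7.93% as higher and 6% as lower. The share of higher calls among all calls was 56.9%, and 94.5% with each library scaled to an equal FPKM sum, which moved the median over all genes to 0.16 on the log2 scale. Cyp2a4 rose by 10.15 on the log2 scale (SE 0.39, limma adjusted p = 1.56e-05). This value depends on the pseudocount, being 11.34 with 0.1 FPKM added in place of 0.5, because Cyp2a4 was near 0 in Nor. Cyp2b9 rose by 3.84 (SE 0.29, limma adjusted p = 0.000392), which is 14.4-fold on that scale. Cyp2b13 rose by 3.87 (SE 0.44, limma adjusted p = 0.00225), and by 5.34 with 0.1 FPKM added. These 3 calls held under each of the 19 other settings that kept the genes apart, equal sums and leaving out any 1 pool included.

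Cyp2a4 and Cyp2b9 kept a ratio within a narrow range in the pools given DEN. The Cyp2a4 level was 13.9 to 21.5 times the Cyp2b9 level in these 8 pools and 0.0131 and 0.262 times it in the Nor pools. The 2 genes neighbour each other in the cluster. Between Cyp2a4 and Cyp2a5 lie Cyp2b23 and Cyp2b19, both listed at 0 in all 10 libraries, and Cyp2g1, which stayed between 0.103 and 1.01 FPKM. Beyond Cyp2a12 lies Cyp2f2, a lung and liver P450, which went from 658 ± 218 FPKM in Nor to 352 ± 36.8 in NCD (SD, n = 2) and was not called (log2 change -0.87, limma adjusted p = 0.116).

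Markers of tumour and fetal liver moved with the rise of these genes. Of 9 tested markers 8 rose and 0 fell in NCD against Nor, and the sum over all 10 in the table went from between 6.00 and 6.52 FPKM in the Nor pools to between 604 and 852 in the NCD pools. The list was chosen with earlier results of these data known. Spink1 and Dlk1 of that list were at 0 in both Nor pools, and none was at 0 in both NCD pools. Markers of some other cell types were higher too, where 7.93% of all tested genes were called as higher. Among neutrophil (10 tested) and erythroid (7 tested) markers 0 were called. Of 6 tested cholangiocyte markers 3 rose and 0 fell, and the 9 in the table summed to 18.5 to 27.3 FPKM in Nor and 328 to 375 in NCD. Spp1 and Tspan8, with means of 217 and 67.0 FPKM over the 10 libraries, weigh most in this sum. Of 5 tested lymphocyte markers 3 rose and 0 fell (sums of 11 markers 3.74 to 6.32 and 23.9 to 28.9 FPKM), with 1 called without Nor replicate 1 or either NCD pool. Of 11 stellate cell and fibroblast markers 5 rose and 0 fell, while their sums overlapped (111 to 138 and 133 to 138 FPKM), with 1 called without Nor replicate 1 or NCD replicate 1 and 0 without NCD replicate 2. Of 16 macrophage markers 2 rose and 0 fell (sums 222 to 298 and 344 to 423 FPKM), with 1 called without either NCD pool, and of 9 endothelial markers 1 rose. The part of such cells in the rise of Cyp2a4, Cyp2b9 and Cyp2b13 was not tested. In these bulk samples more cells of a type and more RNA per cell cannot be told apart.

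**Figure D2:**
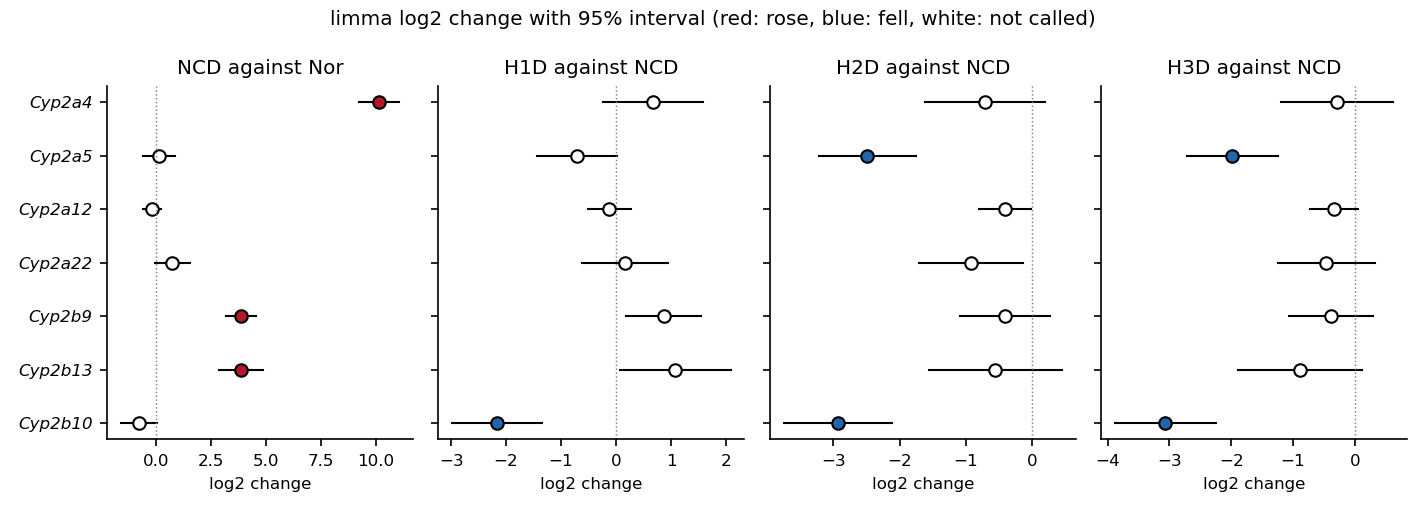
limma log2 change of the 7 genes (x axis, each panel with its own range) in NCD against Nor and in H1D, H2D and H3D against NCD, with 95% intervals; filled points were called. Cyp2a4, Cyp2b9 and Cyp2b13 lie to the right in the panel of NCD against Nor, and Cyp2b10 and Cyp2a5 lie to the left in the panels of H2D and H3D.

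Cyp2b10 was highest in the Nor pools. Its level was 4.31 and 10.6 FPKM in Nor, with NCD at 4.24 and 3.33, H1D at 0.597 and 0.330 and H2D at 0.0851 and 0.0341, and in H3D it was listed at 0 in pool 1 and at 0.0186 FPKM in pool 2. The pools of neighbouring groups in this order did not overlap, from Nor down to H3D. In NCD against Nor it was not called (log2 change -0.78, SE 0.35, limma adjusted p = 0.173, 95% interval -1.59 to 0.04). Without Nor replicate 1 it was called, with a log2 change of -1.38 (limma adjusted p = 0.0277), and without Nor replicate 2 the change was -0.17 (0.649). The order of the pools is therefore a description for that step, and the share of all genes with such an order was not counted. Cyp2b10 was also not called in H2D against H1D (log2 change -0.77, limma adjusted p = 0.544) or H3D against H2D (-0.13, 0.940). Its H2D and H3D levels were near 0. The tests against NCD are given with the next comparisons.

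Cyp2a5 was at 607 and 373 FPKM in Nor, with NCD at 502 and 541, H1D at 238 and 428, H2D at 82.3 and 104 and H3D at 113 and 153. The pools of Nor and NCD overlapped, those of H1D lay below NCD, and those of H2D and H3D were lowest. Its change in NCD against Nor was 0.13 (SE 0.32, limma adjusted p = 0.803, 95% interval -0.60 to 0.86), while its near copy Cyp2a4 rose.

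Each high-fat group was compared with NCD to see what the high-fat diet with high-fat maternal ancestry went with beyond DEN. In H1D against NCD 1 of the 7 members fell, 0 rose and 6 were not called, where 0.493% of all tested genes were called as lower and 0.701% in either direction. That member was Cyp2b10, which fell by 2.16 on the log2 scale (SE 0.35, limma adjusted p = 0.0432). The call was lost under 13 of 18 other settings, with adjusted p up to 0.240, without any 1 of the NCD, H1D, H2D or H3D pools among them. Cyp2b9 and Cyp2b13 had log2 changes of 0.87 (limma adjusted p = 0.190) and 1.08 (0.260), and Cyp2a5 of -0.71 (0.308), all short of a call although their pools did not overlap. Non-overlap between these groups was seen in 26.5% of all tested genes upward and 26.9% downward.

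In H2D against NCD 2 members fell, 0 rose and 5 were not called, where 1.93% of all tested genes were called as lower, 2.15% as higher and 4.08% in either direction. Cyp2a5 fell by 2.49 on the log2 scale (SE 0.32, limma adjusted p = 0.00906), which is 5.62-fold. Cyp2b10 fell by 2.93 (SE 0.35, limma adjusted p = 0.00742), and fell by 4.61 with 0.1 FPKM added in place of 0.5. Both calls were lost without NCD replicate 1 (adjusted p 0.0671 for Cyp2a5 and 0.0672 for Cyp2b10), NCD replicate 2 (0.0876 and 0.0586) or H2D replicate 2 (0.0599 and 0.0721), while the log2 changes stayed between -2.66 and -2.44 for Cyp2a5 and between -3.08 and -2.78 for Cyp2b10 in these fits.

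In H3D against NCD the same 2 members fell, 0 rose and 5 were not called, where 9.87% of all tested genes were called as lower, 5.04% as higher and 14.9% in either direction. Cyp2a5 fell by 1.98 (SE 0.32, limma adjusted p = 0.00623), and its adjusted p was 0.0524 without NCD replicate 2. Cyp2b10 fell by 3.07 (SE 0.35, limma adjusted p = 0.00203), a call that held under all 18 other settings, and fell by 5.15 with 0.1 FPKM added. For the mean of the 3 high-fat groups against NCD, with 7.53% of all tested genes called as lower, 4.23% as higher and 11.8% in either direction, Cyp2b10 fell by 2.72 (limma adjusted p = 0.00214) and Cyp2a5 by 1.73 (0.00757). Without NCD replicate 1 or 2 the adjusted p of Cyp2a5 in that comparison was 0.0730 and 0.0967. These comparisons share the NCD pools. With equal FPKM sums the median over all genes moved to 0.11 in H1D, 0.10 in H2D, 0.20 in H3D and 0.14 in the mean against NCD, the share of higher calls among all calls went from 29.6% to 54.4%, from 52.7% to 71.1%, from 33.8% to 74.6% and from 36% to 73%, and every Cyp2a5 and Cyp2b10 call named here held.

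Cyp2a4, Cyp2b9 and Cyp2b13, which rose with DEN, were not called in H1D, H2D or H3D against NCD. With the compared groups fitted alone Cyp2a4 was called as lower in H2D against NCD (limma adjusted p = 0.0225). The log2 change of Cyp2a4 was 0.68 in H1D, -0.72 in H2D and -0.29 in H3D (limma adjusted p = 0.432, 0.375 and 0.673), with a 95% interval of -1.20 to 0.62 in H3D. That of Cyp2b9 was 0.87, -0.42 and -0.38, with limma adjusted p of 0.190, 0.513 and 0.442. Missing the threshold does not show that the levels of these genes were alike in the groups.

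Cyp2a12, a steroid hydroxylase, and Cyp2a22 varied least of the 7, with SDs over the 10 libraries of 0.26 and 0.51 on the log2 scale. Cyp2a12 stood at 400 and 285 FPKM in Nor, with NCD at 283 and 310, H1D at 292 and 253, H2D at 243 and 203 and H3D at 229 and 239. Nor, NCD and H1D overlapped, and the H2D and H3D pools lay below those of NCD. Cyp2a22 was low throughout, between 1.11 and 4.43 FPKM, and its groups overlapped with their neighbours in order of level. Neither gene was called in any of the 8 comparisons. For Cyp2a12 the change was -0.19 in NCD against Nor (95% interval -0.58 to 0.20), -0.41 in H2D (limma adjusted p = 0.231) and -0.34 in H3D against NCD (limma adjusted p = 0.232). Its small change in NCD against Nor had the other sign with equal FPKM sums (0.03) and with quantile scaling (0.01).

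The 3 high-fat groups share their own diet and differ in the generation of the mother, so their comparison asks about ancestry. Each generation is 1 group, and breeding cohort and generation cannot be told apart. By limma 0 of the 7 members were called in H2D against H1D, where 0.147% of all tested genes were called, although 5 had an unadjusted p below 0.05, as did 9.73% of all tested genes. The same held in H3D against H1D, with 0 called (0.606% of all genes) and 5 members under 0.05 unadjusted (11.5% of all genes). In H3D against H2D 0 were called (0.511% of all genes) and 0 had an unadjusted p under 0.05 (12.8% of all genes).

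All 7 genes had both H2D pools below both H1D pools, and likewise both H3D pools below both H1D pools. This was so for 21.4% of all tested genes in H2D and 24.3% in H3D, and the comparisons share the H1D pools. Adjusted p over all genes ran from 0.0990 to 0.679 in the first and from 0.115 to 0.742 in the second. The log2 change of Cyp2a5 was -1.78 in H2D against H1D (limma adjusted p = 0.0990) and -1.28 in H3D against H1D (0.153), so its fall against NCD in H2D and H3D is not shown to differ from its change in H1D. For Cyp2a4 the changes were -1.39 (limma adjusted p = 0.290) and -0.97 (0.396). For Cyp2b13 they were -1.64 (limma adjusted p = 0.255) and -1.97 (0.115).

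**Figure D3:**
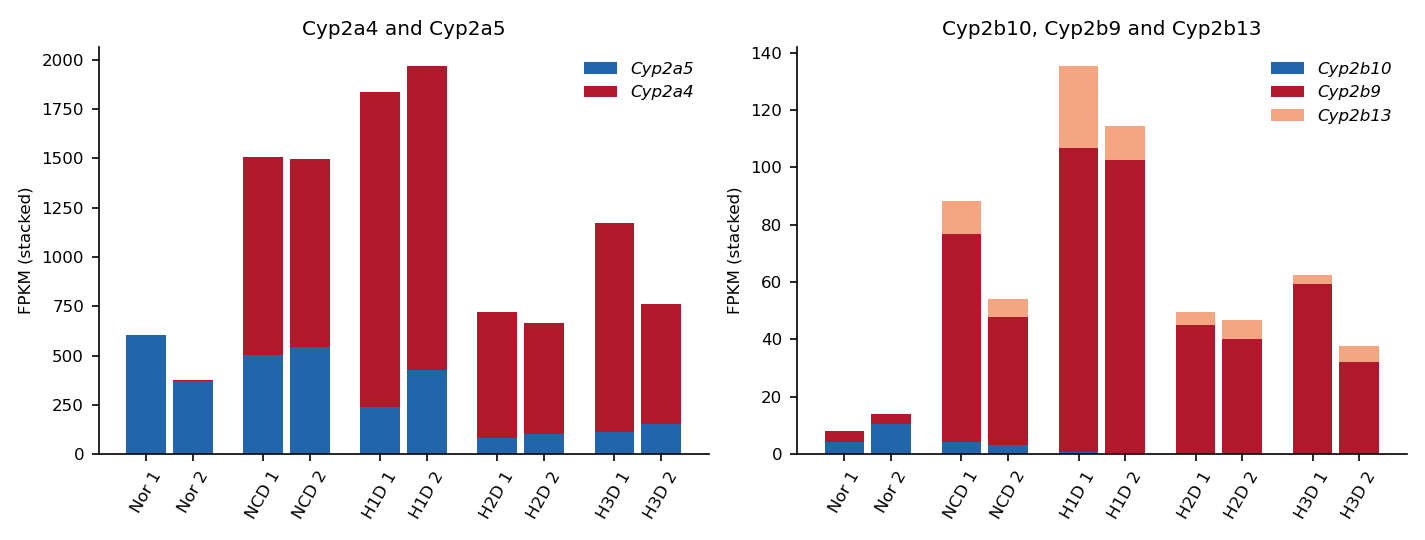
Stacked FPKM per pool of Cyp2a4 with Cyp2a5 (left) and of Cyp2b10, Cyp2b9 and Cyp2b13 (right). Cyp2a5 makes up nearly all of the pair in the Nor pools and Cyp2a4 most of it in every pool given DEN; Cyp2b10 leads its set in the Nor pools only.

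The make-up of the close copies changed with DEN. Cyp2a4 held 0.0080% and 0.230% of the summed Cyp2a4 and Cyp2a5 FPKM in the Nor pools. Its share was 66.7% and 63.9% in NCD, and the high-fat pools had 87.1% and 78.2% (H1D), 88.6% and 84.4% (H2D), and 90.4% and 79.9% (H3D). Every high-fat pool had a higher Cyp2a4 share than both NCD pools. The sum itself, which does not depend on how reads were split within the pair, was 607 and 374 FPKM in Nor, with NCD at 1509 and 1499, H1D at 1839 and 1967, H2D at 719 and 665 and H3D at 1172 and 763. Entered in the fit as 1 gene, this sum rose by 1.66 in NCD against Nor (SE 0.25, limma adjusted p = 0.00759). Its change was -1.12 in H2D (limma adjusted p = 0.0503) and -0.67 in H3D against NCD (0.114), so with the copies merged the fall of Cyp2a5 is not called.

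Among the Cyp2b genes Cyp2b10 held 52.9% and 75.8% of the summed FPKM in Nor, against 4.80% and 6.17% in NCD and at most 0.441% in any high-fat pool. Cyp2b9 held 82.3% in both NCD pools. The summed Cyp2b level rose by 2.64 in NCD against Nor (SE 0.33, limma adjusted p = 0.00341) and had a change of -0.51 in H2D (limma adjusted p = 0.455) and -0.50 in H3D against NCD (0.351). The fall of Cyp2b10 concerns a small part of this sum and is not seen in it.

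**Figure D4:**
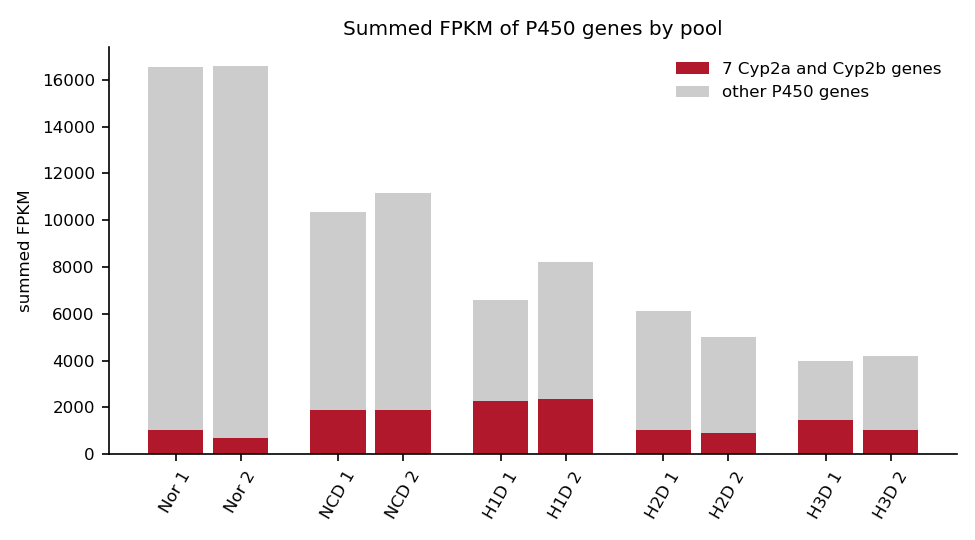
Summed FPKM of 99 P450 genes per pool (y axis from 0), with the 7 Cyp2a and Cyp2b genes in red. The total is highest in the Nor pools and lowest in the H3D pools, and the red part is larger in every pool given DEN except those of H2D than in the Nor pools.

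The Cyp2a and Cyp2b genes were also set against all P450 genes. The FPKM of 99 genes with P450 symbols summed to 16544 and 16577 in Nor, with NCD at 10366 and 11158, H1D at 6583 and 8228, H2D at 6123 and 5000 and H3D at 3975 and 4191. The 7 genes held 6.14% and 4.07% of it in Nor, with NCD at 18.2% and 16.7%, H1D at 34.5% and 28.4%, H2D at 16.6% and 18.3% and H3D at 36.9% and 24.9%. Cyp2a4 alone ranked 70th and 58th by FPKM among the P450 genes in the Nor pools, at rank 3 in both NCD pools, and at rank 1 or 2 in every high-fat pool. Every pool given DEN had a higher share of the 7 genes than both Nor pools, and the H2D shares spanned those of NCD although their total was lower. These shares describe the make-up of the pools and were not tested.

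**Figure D5:**
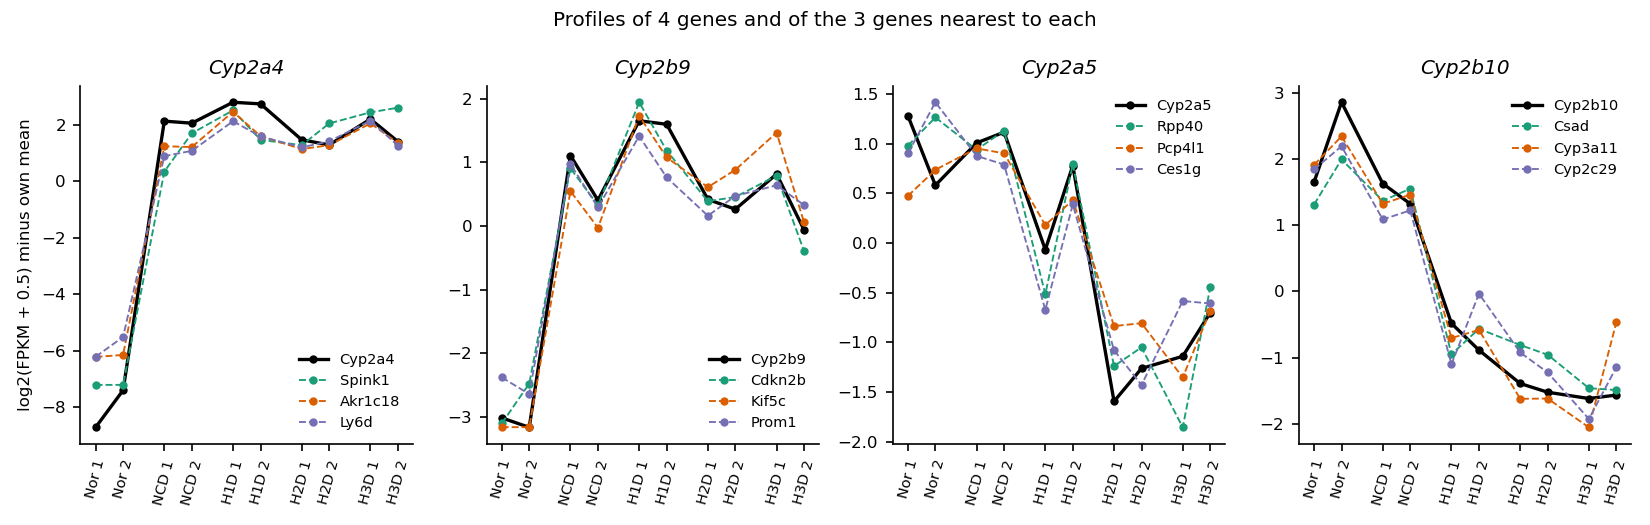
log2(FPKM + 0.5) minus the gene's own mean over 10 libraries (y axis) in each pool (x axis), for Cyp2a4, Cyp2b9, Cyp2a5 and Cyp2b10 (solid) and the 3 genes nearest to each (dashed); panels have their own ranges. The dashed lines step up with DEN beside Cyp2a4 and Cyp2b9 and run down towards H2D and H3D beside Cyp2a5 and Cyp2b10.

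For each member the 3 nearest profiles were sought among 9411 genes whose mean level was 2 FPKM or more, by the root mean square difference of centred log2 values over the 10 libraries. This is a description of likeness, and the groups themselves set much of it. Nearest to Cyp2a4, whose own spread was 4.07 (SD), were Spink1, a trypsin inhibitor made in liver tumours, at a difference of 0.97, the steroid reductase gene Akr1c18 at 1.04 and the surface antigen gene Ly6d at 1.19. Spink1 was listed at 0 in both Nor pools, and Akr1c18 went from 0.0999 ± 0.0210 FPKM in Nor to 102 ± 1.46 in NCD (SD, n = 2). Nearest to Cyp2b9 were the cell cycle inhibitor Cdkn2b at 0.31, the kinesin gene Kif5c at 0.41 and Prom1 at 0.42, and nearest to Cyp2b13 were again Cdkn2b and Prom1, with the phosphatase gene Dusp5. For Cyp2a12 they were the gap junction gene Gjb1 at 0.095, Ftsj1 and Vars2, and for Cyp2a22 Ces2e at 0.27, Acsl5 and Afm.

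The nearest genes to Cyp2b10 were Csad (taurine synthesis) at 0.45, Cyp3a11, a main drug-metabolising P450, at 0.45 and Cyp2c29 at 0.50. Cyp3a11 was at 2228 ± 466 FPKM in Nor, 1327 ± 89.4 in NCD, 324 ± 19.5 in H1D, 164 ± 0.276 in H2D and 243 ± 172 in H3D (SD, n = 2), where the H3D pools, at 121 and 365, overlapped those of H2D, unlike the Cyp2b10 pools. For Cyp2a5 they were Rpp40 at 0.39, Pcp4l1 at 0.42 and the carboxylesterase gene Ces1g at 0.46. Within the cluster genes, Cyp2b9 and Cyp2b13 were nearest to each other (0.53), Cyp2a4 differed least from Cyp2b9 (2.51) and most from Cyp2b10 (5.26), and Cyp2a5 was 4.58 from its near copy Cyp2a4.

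Genes known to share regulators with Cyp2b10 were taken from a list of CAR and PXR targets that leaves out the 7 members, 35 of them tested. Of these 5 rose and 7 fell in NCD against Nor, where 13.9% of all tested genes were called. Against NCD 0 rose and 4 fell in H1D (0.701% of all tested genes called). In H2D 1 rose and 21 fell (4.08%), and in H3D 0 rose and 22 fell (14.9%). The median log2 change of the list was -0.37, -0.48, -1.16 and -0.92 in these comparisons, where the median over all genes was -0.04, 0.01, -0.00 and 0.00. In H2D, Ephx1 (microsomal epoxide hydrolase) fell by 1.30 (limma adjusted p = 0.00468), the carboxylesterase gene Ces2a fell by 2.34 (0.00468), Cyp2c55 fell by 2.16 (0.00706) and Cyp3a11 fell by 3.01 (0.0125). Without NCD replicate 2 none of these 4 was called, and without NCD replicate 1 or H2D replicate 2 Cyp2c55 and Cyp3a11 were not, nor was Cyp3a11 without H2D replicate 1. Leaving out 1 library changed the number called in H2D to between 0 (without NCD replicate 2) and 26, and to 3, 10 and 2 without NCD replicate 1, H2D replicate 1 and H2D replicate 2, while in H3D it stayed between 15 and 23. Without a single library the number in NCD against Nor was 2 without Nor replicate 1 or NCD replicate 1 and 1 without NCD replicate 2, and in H1D it was 0 without NCD replicate 1, NCD replicate 2 or H1D replicate 1, 7 without H1D replicate 2, and 1 without either H2D pool.

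Of 15 regulators and electron partners of these P450 genes, 1 rose and 3 fell in NCD against Nor (13.9% of all tested genes called). Against NCD 0 rose and 1 fell in H1D (0.701%), and 0 rose and 2 fell in H2D (4.08%). In H3D 1 rose and 6 fell (14.9%). Nr1i3, which encodes CAR, fell by 1.04 in NCD against Nor (limma adjusted p = 0.0271) and by a further 1.56 in H3D against NCD (0.00487), and its changes of -0.42 in H1D and -0.72 in H2D were not called (0.403 and 0.137), though that in H2D was with the compared groups fitted alone (0.0380). Por, the shared electron donor, fell by 0.88 in NCD against Nor (limma adjusted p = 0.0234) and by 0.92 in H3D (0.0151), with 0.00 in H2D. The electron carrier genes Cyb5b and Cyb5a fell by 1.22 and by 1.04 in H3D, and Pgrmc1, a haem-binding partner of P450 enzymes, fell by 0.94 (limma adjusted p = 0.00110, 0.00315 and 0.00326). Nr1i2, which encodes PXR, and Hnf4a were not called in any of these 4 comparisons, except that Hnf4a was called as lower in NCD against Nor without Nor replicate 2 (log2 change -0.49, limma adjusted p = 0.0379). The number called fell to 1 in NCD against Nor without either NCD pool and was 7 without Nor replicate 2, and it was 4 in H3D without NCD replicate 1, NCD replicate 2 or H3D replicate 2. In NCD against Nor the call of Nr1i3 was lost under 6 of 18 other settings, equal FPKM sums and leaving out Nor replicate 2 or either NCD pool among them, and that of Por under 5, leaving out Nor replicate 1 or either NCD pool among them. In H3D the call of Por was lost without any 1 of the NCD and H3D pools, and those of Nr1i3, Cyb5b, Cyb5a and Pgrmc1 held under all 18.

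Cyp2a4, Cyp2b9 and Cyp2b13 were set beside a list of other female-biased liver genes. Of 28 tested, 6 rose and 0 fell in NCD against Nor (list median 0.93, all genes -0.04). Against NCD 1 rose and 0 fell in H1D, and 2 rose and 0 fell in H2D (list medians 0.65 and 0.18). In H3D against NCD 4 rose and 4 fell (list median 0.21, all genes 0.00). Over all tested genes 13.9% were called in NCD against Nor, and 0.701%, 4.08% and 14.9% in H1D, H2D and H3D. In H3D Cyp17a1 (steroid synthesis) rose by 2.88 (limma adjusted p = 0.000981), the co-regulator gene Trim24 rose by 0.61 (0.00552) and Cyp7a1, the rate-limiting enzyme of bile acid synthesis, fell by 1.82 (0.00887). The 6 rises in NCD against Nor became 1 without NCD replicate 1, 3 without NCD replicate 2 or Nor replicate 1, and 10 without Nor replicate 2. The call of Trim24 was lost without NCD replicate 2, that of Cyp7a1 without NCD replicate 1 or H3D replicate 1, and that of Cyp17a1 held. In H3D the 8 calls became 3, 2, 2 and 5 without NCD replicate 1, NCD replicate 2, H3D replicate 1 and H3D replicate 2.

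Of 33 male-biased liver genes 2 rose and 5 fell in NCD against Nor (list median -0.611, with 13.9% of all tested genes called). Against NCD 0 rose and 11 fell in H1D (-1.22, 0.701%), and 1 rose and 11 fell in H2D (-1.0003, 4.08%). In H3D 0 rose and 24 fell (-2.17, 14.9%). In H3D the hydroxylase gene Cyp4a12a fell by 6.28, the steroid dehydrogenase gene Hsd3b5 fell by 6.53 and Cyp2d9 fell by 3.45, each with a limma adjusted p of 0.000117. The number in H3D stayed between 20 and 25 without any 1 library. The earlier numbers were less stable, with 0 in NCD against Nor without NCD replicate 1, 1 without NCD replicate 2 or Nor replicate 1 and 15 without Nor replicate 2. They were 0 in H1D without NCD replicate 1, NCD replicate 2 or H1D replicate 1, 6 without H1D replicate 2 and 5 without either H3D pool, and in H2D 1 without NCD replicate 2 or H2D replicate 2 and 2 without NCD replicate 1. Of 14 growth hormone and STAT5 signalling genes 0 rose and 1 fell in NCD against Nor, where 13.9% of all tested genes were called. In H3D against NCD, where 14.9% of all tested genes were called, 0 rose and 2 fell. Those in H3D were the receptor gene Ghr, which fell by 1.80 (limma adjusted p = 0.00135), and Igfals, which fell by 1.20 (0.0260), the count being 1 without NCD replicate 1, NCD replicate 2 or H3D replicate 1 and 5 without either Nor pool. Stat5b, Bcl6 and Cux2 were not called in any of the 4 comparisons.

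Of 15 stress and haem genes known to be linked to Cyp2a5, 4 rose and 1 fell in NCD against Nor, where Cyp2a5 itself was not called. Against NCD 0 rose and 0 fell in H1D, 0 rose and 1 fell in H2D and 1 rose and 1 fell in H3D. Cyp2a5 fell in the last 2. Over all tested genes 13.9% were called in NCD against Nor, and 0.701%, 4.08% and 14.9% in H1D, H2D and H3D. Srxn1 and Nqo1, both NRF2 targets, rose by 1.70 and 1.58 in NCD against Nor (limma adjusted p = 0.00141 and 0.0241), Nfe2l2 rose by 0.43 (0.0430), and Hlf, a clock-linked activator, fell by 0.81 (0.0292). The count of 5 was 1 without either NCD pool, 8 without Nor replicate 2, and 3 without Nor replicate 1 or any 1 of the H2D and H3D pools. The call of Nfe2l2 was lost under 11 of 18 other settings, that of Hlf under 6 and that of Nqo1 under 4, without NCD replicate 1 or 2 and without Nor replicate 1 among them for all 3, while that of Srxn1 held. In H2D the gene called was Srxn1, which fell by 0.78 (limma adjusted p = 0.0494), and in H3D Srxn1 rose by 0.71 (0.0295) and Hlf fell by 0.74 (0.0323). The single call in H2D was lost without either NCD pool, either H1D pool or H2D replicate 2, and the 2 in H3D became 0 without either NCD pool or H3D replicate 2, 1 without H3D replicate 1 or either H1D pool and 4 without either Nor pool.

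Markers of some other cell types moved with the fall of Cyp2a5 and Cyp2b10 in H2D and H3D. Over all tested genes 4.08% were called in H2D and 14.9% in H3D against NCD. Among 5 tested lymphocyte markers 0 were called in H2D or H3D, and of 6 cholangiocyte markers 1 fell in each. Stellate cell and fibroblast markers (11 tested) had 0 and 1 rises in H2D and H3D, and endothelial markers (9 tested) had 1 and 2. The 12 neutrophil markers summed to 12.1 to 31.0 FPKM in NCD, with Ly6g at 0 in both pools, to 20.5 to 110 in H1D, to 468 to 565 in H2D and to 308 to 924 in H3D. Of 10 tested, 10 rose and 0 fell in H2D and likewise in H3D against NCD, with 0 called in H2D without NCD replicate 1, NCD replicate 2 or H2D replicate 2, 2 without H2D replicate 1, and in H3D 2 without NCD replicate 2 and 6 without H3D replicate 2. Of 29 acute phase genes 20 rose and 0 fell in H2D (between 7 and 23 called without 1 library, with 7 without either NCD pool or H2D replicate 2 and 11 without H2D replicate 1) and 22 rose and 1 fell in H3D against NCD. Of 16 macrophage markers 5 rose and 0 fell in H2D and likewise in H3D, with sums of 344 to 423 FPKM in NCD, 697 to 755 in H2D and 518 to 771 in H3D. The macrophage count in H2D was 0 without either NCD pool or H2D replicate 2 and 3 without H2D replicate 1, and in H3D it was 3 without either NCD pool and 11 with equal FPKM sums. Of 7 erythroid markers 1 rose in H2D and 4 rose in H3D, with sums of 634 to 758 FPKM in NCD, 1533 to 2283 in H2D and 1368 to 3982 in H3D. The erythroid count in H3D was 0 without NCD replicate 2. The hepatocyte markers summed to 75084 to 81159 FPKM in NCD, 60946 to 71721 in H2D and 77669 to 93676 in H3D, sums that the most abundant markers dominate. Of 11 hepatocyte markers 1 rose and 1 fell in H2D, and 1 rose and 3 fell in H3D. Those in H3D, named after their values were seen, were Fgb, which rose, and Ttr, Cps1 and Cyp2e1, which fell. Cyp2a5 and the Cyp2b genes are known for expression in the pericentral zone of the lobule. Of 17 pericentral genes 0 rose and 3 fell in H2D, and 0 rose and 10 fell in H3D, where Cyp1a2 fell by 4.02 and Cyp2e1 fell by 2.66 (limma adjusted p = 0.000269 and 0.000487), and of 13 periportal genes 3 rose and 0 fell in H2D and 0 rose and 4 fell in H3D. In H2D the pericentral count was 1 without NCD replicate 1, H2D replicate 1 or either H3D pool and 0 without NCD replicate 2 or H2D replicate 2, and the periportal count was 0 without any 1 of the NCD and H2D pools. The periportal count in H3D was 0 without either NCD pool, 2 without H3D replicate 1 and 1 without H3D replicate 2. The part of these changes in the levels of Cyp2a5 and Cyp2b10 was not tested.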

How the data were processed

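Long RNA of mouse liver was sequenced after removal of ribosomal RNA as paired reads of 125 nt, per the labels' protocols. The authors deposited FPKM values per transcript for mRNA. The submitters' processing notes name the GRCm38 build and, without order or roles, TopHat2 2.0.9 and Bowtie2 2.0.6, GATK, SAMtools 0.1.18 and Picard 1.96, and Cuffdiff and Cufflinks 2.1.1. Read depth and the rule for reads shared by paralogs are not given in the sources used here.

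The FPKM of 50660 transcripts were summed to 21949 genes, and log2(FPKM + 0.5) was fitted in limma 3.58.1 (R 4.3.3) with a coefficient for each group and a mean-variance trend, leaving 5 residual degrees of freedom. All tests were two-sided, with Benjamini-Hochberg adjustment over 11557 genes in each of 8 comparisons. A simulation for NCD against Nor used independent normal noise with each gene's fitted variance, and changed 200 genes that were not of low level. In it 95% of 1.5 log2 and 100% of 3 log2 changes were recovered, with 6 false calls among the unchanged genes of the 11557. Real pools may differ from this noise, so these shares do not give the power of the tests above. Promoters came from RefSeq and were aligned with Biopython 1.88, and plots were drawn with matplotlib 3.10.9 (Python 3.11.15). All 7 members matched a promoter.

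The members, lists and tests were chosen with earlier results of these data known. Named genes are the members, the 3 smallest p of each list in the comparison with most calls, 10 fixed regulators and the 3 nearest profiles of each member. Replicate numbers are only names in the labels and were not used to pair the pools in the main fit. Other tables of the series (noncoding and small RNA) hold no member and were not used here.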

Additional observations from a re-analysis of the deposited data

How the results depend on the processing

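Calls of the 7 members in NCD against Nor held under the other settings, with 3 to 4 called without 1 library, the fourth being Cyp2b10 without Nor replicate 1. With the compared groups alone Cyp2a4 and Nr1i3 gained a call in H2D against NCD, which made 3 members. In H1D against NCD 0 were called with a pseudocount of 0.1 or 1, no filter, a stricter filter (5 members tested), the replicate block, each transcript tested, or paralogs merged (4 tested), and 0 to 1 without 1 library. The stricter filter, which removes Cyp2b10, left 1 call in H2D, H3D and the mean against NCD, and merging left 0 in each. Without 1 library these gave 0 to 2, 1 to 2 and 1 to 2, and the comparisons among high-fat groups 0 to 0. Replicate numbers were not used as pairs in the main fit. The differences between replicates 1 and 2 correlated between groups at r of -0.0533 to 0.225, over 0.1 in 4 of 10 pairs of groups. The source of these correlations was not tested. The replicate block changed no other count of members.

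Some uncalled log2 changes had the other sign, against NCD where no second group is named. With quantile scaling these were in NCD against Nor Cyp2a12 (0.0138), Cux2 (-0.29), Trim24 (0.00435), in H1D Cyp2a12 (0.0166), Por (0.0647), in H3D Hnf4a (0.26), Nfe2l2 (0.0732), in the mean Cyp2a4 (0.0783). With equal FPKM sums they were in NCD against Nor Cyp2a12 (0.0312), Trim24 (0.20), Stat5b (0.14), in H1D Stat5b (0.0353), in H3D Hnf4a (0.12), Stat5b (0.0528), Nfe2l2 (0.12), in the mean Cyp2a4 (0.0373), Cyp2b13 (0.0124). Without 1 library at a time, those that crossed 0 ranged in NCD against Nor Cyp2a12 (-0.43 to 0.0576), Trim24 (-0.0854 to 0.0827), Cyp2a5 (-0.22 to 0.48), Stat5b (-0.39 to 0.24), Cux2 (-0.24 to 1.03), in H2D Hnf4a (-0.00975 to 0.12), Nr1i2 (-0.36 to 0.0959), Por (-0.069 to 0.0691), in H3D Bcl6 (-0.83 to 0.29), Cyp2a4 (-0.69 to 0.11), Cyp2b9 (-0.82 to 0.0599), Hnf4a (-0.20 to 0.00389), in the mean Cyp2b13 (-0.53 to 0.29), Cyp2b9 (-0.33 to 0.38), Cyp2a4 (-0.24 to 0.0231), in H1D Cyp2a22 (-0.18 to 0.52), Stat5b (-0.19 to 0.0432), Bcl6 (-0.29 to 0.84), Por (-0.30 to 0.0471), in H3D against H2D Cyp2a12 (-0.0547 to 0.21), Cyp2b9 (-0.40 to 0.48), Cyp2b13 (-0.72 to 0.0541). The cause was not tested.

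The number of genes called among all genes also moved. NCD against Nor gave 1609, but 652 with quantile scaling, 681 with the compared groups alone, 1012 by transcript, and 258 to 2373 without 1 library. H1D against NCD gave 81, but 52 with pseudocount 0.1, 27 with no filter, 51 alone, 31 by transcript and 0 to 184 without 1 library. H2D gave 471, but 250 with no filter, 795 alone, 256 by transcript and 32 to 656 without 1 library. H3D gave 1724, but 2638 with equal sums and 508 to 2177 without 1 library, and the mean gave 1359, with 105 to 1750. H2D against H1D gave 17, but 0 with pseudocount 0.1, 3 with no filter, 1 alone, 8 with the replicate block, 0 by transcript and 0 to 35 without 1 library. H3D against H2D gave 59, but 36 with no filter and 17 to 120 without 1 library, and H3D against H1D 70, but 15 alone and 12 to 113. Among the lists, CAR and PXR targets called were 12 in NCD against Nor but 6 with quantile scaling and 7 with equal sums, 4 in H1D but 2 with pseudocount 0.1 and 0 with no filter, and 22 in H2D but 9 with no filter. Regulators called in NCD against Nor were 4 but 2 with no filter, equal sums or the groups alone and 1 with quantile scaling. Male-biased genes called were 7 in NCD against Nor but 2 to 4 under those settings, and with no filter 3 in place of 11 in H1D and 4 in place of 12 in H2D. Female-biased genes called in H3D were 8 but 5 with no filter, stress and haem genes called in NCD against Nor were 5 but 2 with quantile scaling or the groups alone and 3 with the replicate block, and neutrophil markers called were 10 in H2D and H3D but 4 with the stricter filter, and 2 in H2D with no filter. Depth is unknown, so Cyp2b10 in H2D and H3D and Cyp2a4 in Nor have no counting error.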

Other observations

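The 2 Cyp2b10 transcripts of the table were not equally present. ENSMUST00000072438 held nearly all of the gene's FPKM where it was highest (10.4 of 10.6 FPKM in Nor pool 2), whereas at the lowest levels the remaining FPKM was listed under ENSMUST00000005477 (0.0340 in H2D pool 2 and 0.0185 in H3D pool 2). Cyp2a5 was listed with 3 transcripts, of which ENSMUST00000005685 held 97.3% to 99.7% in every pool. Cyp2s1 and Cyp2t4, at the edges of the cluster, stayed at or below 0.390 and 0.0632 FPKM, and Cyp2f2 fell by 1.73 in H3D against NCD (limma adjusted p = 0.0122), a call lost without NCD replicate 1, NCD replicate 2 or H3D replicate 1.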
